A study of Mus musculus with 4 samples.

Results

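The tegRNA class is among the annotation classes that the submitters gave to small RNA reads of mouse testis. Its members were taken by the class label alone, at every length, with each sequence counted once per library. They were 41941 of the 4496542 distinct sequences in the deposited table, and 227391 of its 40897884 reads. What the letters teg stand for is not given in the sources used here, and the class had 1 subclass, which bears the same name. None of its lines carried a gene, repeat or locus name. No tegRNA sequence stood under another class in any library.

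The study compared whole testes of 16-day-old wild-type mice with testes of Hsf5 knockdown mice, with 2 libraries in each group, labelled as biological replicates. Hsf5 encodes a heat shock transcription factor of the male germ line. The labels call the treated group a knockdown and the table itself calls it a knockout, and how Hsf5 was reduced is not given in the sources used here. Strain, number of animals and RNA quality are not given either. Small RNA libraries do not measure Hsf5 mRNA, so the labels were not checked against the targeted gene. In whole testis, fewer cells of a type and less RNA per cell cannot be told apart. The libraries held 9260452 to 11117460 counted reads. All 6 testis germ cell miRNAs checked and the testis somatic miRNA had reads in every library, with mmu-miR-470-5p highest at 9578 to 14157 reads per 1000000 counted reads (RPM). The liver miRNA mmu-miR-122-5p stood at 0.108 to 0.642 RPM and the 2 blood miRNAs at most at 5.82 RPM, while the muscle miRNA mmu-miR-1a-3p stood at 238 to 331 RPM and the other 2 muscle miRNAs at most at 1.73 RPM. Each knockdown library stood apart from the others in some measure. Outside the class, reads of 29 to 31 nt made up 18.2% of all 25 to 31 nt reads in knockdown 1, against 31.8% to 37.7% in the other libraries. In knockdown 2 the germ cell miRNA mmu-miR-743a-3p stood at 515 RPM against 983 to 1254 elsewhere, mmu-miR-871-3p at 9907 against 4454 to 5634, and the somatic mmu-miR-202-5p at 188 against 395 to 557. The part of these differences in the results was not tested.

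PIWI-interacting RNAs (piRNAs) are germ line small RNAs that guide PIWI proteins to transposon and other transcripts. They are cut from long single-stranded precursors of named genomic loci, they usually begin with U, and those made by reciprocal cleavage of transposon transcripts often carry A at base 10. Their 3′ ends are methylated, which is known to protect small RNAs from the addition of extra bases, mostly U, that no genome sequence encodes. Ribosomal RNA is cut from a long precursor whose spacers are degraded, and its fragments are common in small RNA libraries.

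The class held 3 main kinds of sequence, and the sequences below show each of them. The most abundant was a family of 316 sequences that share a core of 13 bases, shown in capitals. Its 10 leading members were numbered by mean RPM over the libraries, and core1 to core10 were also the 10 most abundant tegRNA sequences of all. T stands for U throughout.

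core1: ctcttaGATCGATGTGGTGctccggag
core3: ctcttaGATCGATGTGGTGctccgg
core6: ctcttaGATCGATGTGGTGctccggagt
core10: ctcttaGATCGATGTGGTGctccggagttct
core4: tcttaGATCGATGTGGTGctccggaga
core5: tcttaGATCGATGTGGTGctccggaa

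The upper 4 follow a single run of letters from the same first base and differ in where they end. The lower 2 begin 1 base later and end in an A that the run does not hold. None of core1 to core10 matched the reference genome (GRCm39) with 0 or 1 mismatch. The nearest place to core1 had 3 mismatches and lay at chr12:36866246-36866272 on the plus strand, in the GENCODE miRNA gene Mir5099. Its letters are given next, with the mismatched bases in capitals.

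Mir5099 place: GGcttagatcgatgtggtgctccTgag

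Counted from the 5′ end, with the base of core1 first, the differences were C1G, T2G and G24T. The RefSeq hairpin of Mir5099 shares a run of 21 bases with core1, cttagatcgatgtggtgctcc. As background, the core letters are known from the external transcribed spacer at the 5′ end of the mouse ribosomal RNA precursor. The reference used holds no sequence of that precursor as such, so the origin of the family was not tested.

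The next kind matched the genome at 1 place except for its last base, shown in capitals. These sequences lay mostly in deposited piRNA loci, whose names give chromosome and band.

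last1, locus 15-qD3-14639, chr15:74529915-74529946, plus strand: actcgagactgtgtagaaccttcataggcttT
last2, locus 17-qA3.3-26735, chr17:27564037-27564066, plus strand: tttgttgaatggatgaatgggtggatgacT
last3, locus 17-qA3.3-27363, chr17:27524385-27524415, minus strand: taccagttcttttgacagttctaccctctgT
last7, locus 17-qA3.3-26735, chr17:27558397-27558422, plus strand: tattaactggctctgggctctggatT

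The remaining main kind matched GRCm39 exactly at 1 place, most often in or against an annotated gene. These were many and rare, and the 3 shown were among the most abundant.

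exact1, intron of Spg21, chr9:65393195-65393227, plus strand: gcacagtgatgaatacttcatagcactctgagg
exact3, antisense to an intron of the lncRNA gene Gm12984, chr4:135028616-135028645, minus strand: tactaaggactttgaaaactaagggaggtc
exact4, intron of the lncRNA gene Gm64122, chr8:92925473-92925497, plus strand: tgacaagaggtggacctgtggcagc

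By number of sequences the exact matches led, with 23029 sequences or 54.9% of the class, but by reads the family led. Its 316 sequences, 0.753% of the class, held 121072 reads or 53.2%. The exact matches held 41598 reads (18.3%) and the last-base sequences, 8733 in number, held 41022 reads (18.04%). A further 3488 sequences matched exactly once their last 2 or 3 bases were left out (8766 reads), 4268 had 1 mismatch elsewhere (7418 reads), and 2107 had none of these (7515 reads). No sequence matched the genome exactly at more than 1 place.

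**Figure D1:**
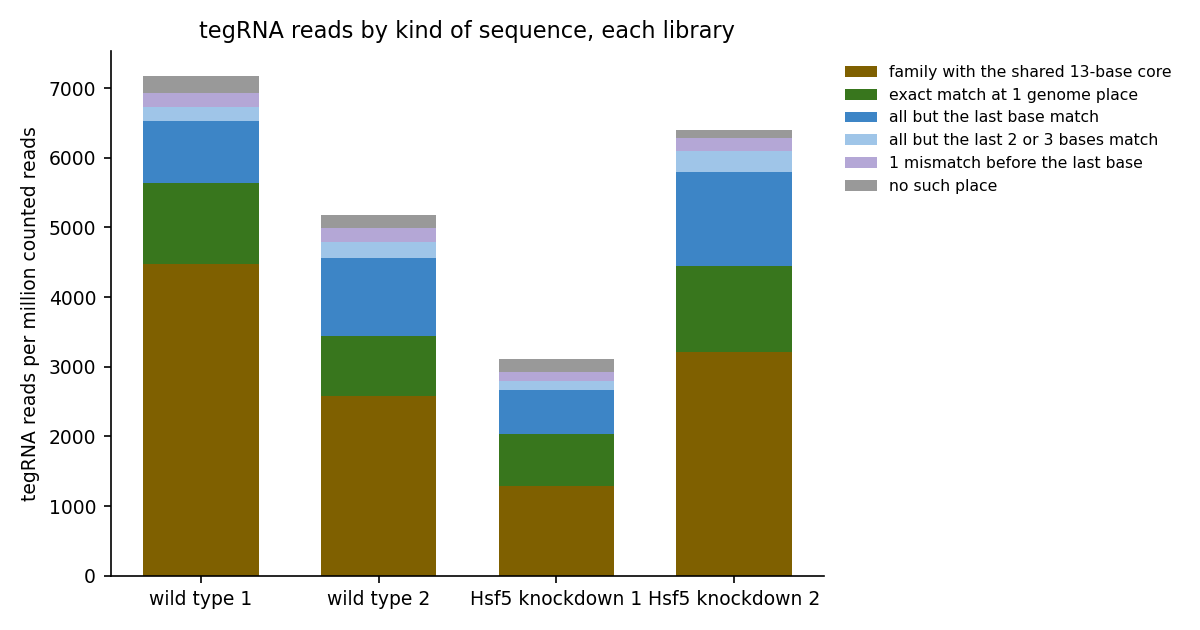
Stacked bars show tegRNA reads per 1000000 counted reads in each of the 4 libraries, split into the 6 kinds of sequence defined by their match to GRCm39. The family with the shared core is the lowest block and runs from 1282 RPM in knockdown 1 to 4478 RPM in wild type 1, while the exact matches run from 754 to 1231 RPM.

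The class took 0.718% and 0.517% of all reads in wild type 1 and 2, and 0.311% and 0.640% in knockdown 1 and 2. Knockdown 1 was lowest and knockdown 2 lay between the wild-type libraries, so the groups overlapped. The means were 0.618% ± 0.142 (SD, n = 2) in wild type and 0.476% ± 0.233 (SD, n = 2) in knockdown, with p = 0.667 in an exact two-sided permutation test. With 2 libraries against 2 this test cannot go below 0.33. Counting error was small beside this spread: the 95% Wilson interval of the share in knockdown 1 was 0.307% to 0.314%. Intervals cover counting error only, since the libraries carry no molecular identifiers. Fitted with all 11 classes in edgeR's quasi-likelihood test, tegRNA had a log2 fold change, knockdown over wild type, of -0.42 (SE 0.35, Benjamini-Hochberg adjusted p = 0.979), and 0% of the classes passed an adjusted p of 0.05. Without knockdown 1 the fold change was -0.012 and without knockdown 2 it was -0.98, on the log2 scale.

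Most of that spread lay in the family. The family stood at 4478 and 2579 RPM in wild type 1 and 2 and at 1282 and 3218 RPM in knockdown 1 and 2 (exact permutation p = 0.667, n = 2 per group). Wild type 1 was highest, knockdown 1 lowest, and the groups overlapped. Without the family, the class held 0.271% and 0.260% of reads in wild type and 0.183% and 0.320% in knockdown, a difference of -0.014 percentage points (exact permutation p = 1, n = 2 per group).

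core1 was the leading tegRNA sequence of every library. It was read 15856 times in wild type 1, 7494 in wild type 2, 2951 in knockdown 1 and 8510 in knockdown 2. In RPM this was 1426 and 809 in wild type against 307 and 781 in knockdown, so the 2 knockdown values were lower than either wild-type value, knockdown 2 only just. That order holds in RPM only. The TMM scaling factors of the edgeR fit, 1.10 for wild type 2 and 0.947 for knockdown 2, place knockdown 2 above wild type 2. The log2 fold change of core1 was -1.16 (SE 0.76, edgeR adjusted p = 1). Without knockdown 2 it was -1.99, and without knockdown 1 it was -0.61.

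core5, which ends in the A that the run does not hold, had another order. It stood at 237 and 194 RPM in wild type and at 148 and 502 RPM in knockdown, with the highest and the lowest value both in knockdown. core10, the longest of the 10, stood at 135 and 49.8 RPM in wild type and at 17.7 and 48.2 RPM in knockdown. In RPM each knockdown value of core10 was below either wild-type value, but with the TMM factors knockdown 2 again lay above wild type 2. The log2 fold change of core10 was -1.64 (SE 0.94, edgeR adjusted p = 1). Without knockdown 2 the log2 fold changes of core6, core7, core9 and core10 were -1.72, -1.83, -2.22 and -2.53. Along with core1 these were the lowest of the 10 in that fit, where core2 to core5 had -1.38, -1.07, -1.66 and -0.65. Without knockdown 1 the log2 fold changes of core6 and core7 were -0.52 and -0.43, and those of core2 to core5 were -0.41, -0.14, 0.23 and 1.16.

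**Figure D2:**
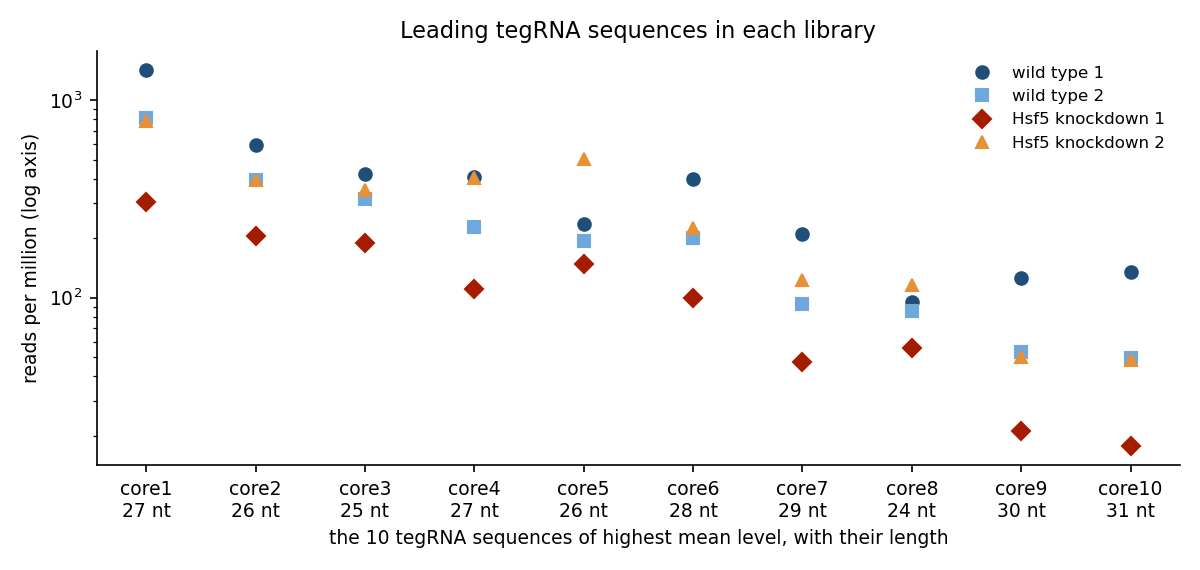
Points give the level in RPM, on a log axis, of the 10 tegRNA sequences of highest mean level, core1 to core10, in each library. core1 leads in every library and knockdown 1 is the lowest library for each of the 10.

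In the deposited table, where a family member began and how it ended were linked. Reads that followed the run from its first letter, ctcttag, made up 77.0% of the family's reads and came in 12 lengths from 24 to 35 nt. Reads that began 1 base later, followed the run and then ended in 1 A that is not in it made up 21.4%. Among reads that began 1 base later and followed the run throughout, the class held those of 40 to 44 nt (248 reads), and shorter ones of 16 to 21 nt stood under LINE and LTR. From 23 to 42 nt, the table held 3 such sequences with 91 reads in any class. It held 0 that began 2 to 5 bases later. Whether the link comes from which reads the table kept was not tested. The share with that A was 16.6% and 17.8% of family reads in wild type and 21.9% and 30.4% in knockdown. The letters of the core also occurred outside the class, where 82.9% of all reads that hold them were tegRNA, 7.16% LINE, 6.01% LTR and 3.28% nrRNA. That share depends on the letters chosen, since 33722 reads of the same run that begin 1 base inside the core stood under nrRNA.

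The family was not the only group with ribosomal letters. noplace1, shown because it led the sequences with no genome place, and noplace2 each carry letters that are known from mature mouse ribosomal RNA (28S and 5.8S), in capitals.

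noplace1: CTACGCCGCGACGagtaggagg
noplace2: GTGGATCACTCGGctcgtgcgtcg

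noplace1 had 125 and 81 reads in wild type and 119 and 36 in knockdown. noplace2 had 137 and 83 reads in wild type and 83 and 10 in knockdown. Knockdown 2 was the lowest library for both. Over the class, 6 sequences with the 13 bases CTACGCCGCGACG held 1211 reads, and 31 with GTGGATCACTCGG held 2273 reads, which was 15.5% of all reads with the latter letters in the table.

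Where a sequence outside the family differed from the genome by 1 base, it was most often the last. Of the 13001 sequences with 1 mismatch to the genome outside the family, 67.2% had it at the last base, which held 82.0% to 87.7% of their reads. The base before the last held 6.62% of them. The differing last base was U in 82.2% of these sequences and in 90.7% to 92.0% of their reads, A in 6.63% to 7.34% of reads, and C or G in the rest. The U share was 91.2% and 92.0% in wild type and 90.7% and 91.9% in knockdown, and the groups overlapped. The table shows only that the base differs from GRCm39, and whether it was added to the RNA was not tested.

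**Figure D3:**
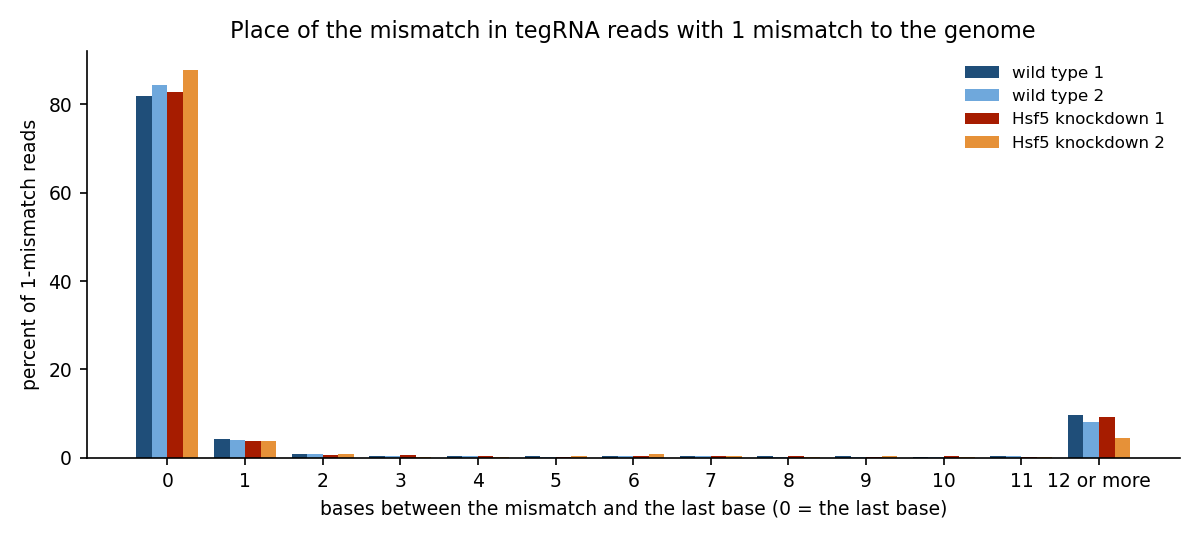
Bars give the share of 1-mismatch tegRNA reads, in each library, by the number of bases between the mismatch and the 3′ end, where 0 is the last base and sequences of the family are left out. The last base holds 82.0% to 87.7% of the reads and the next position 3.87% to 4.30%.

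Deposited piRNA loci held 71.0% of the last-base sequences and 88.5% to 91.5% of their reads. Sequences with 1 mismatch elsewhere lay there about as often, with 76.6% of the sequences and 76.0% to 83.95% of their reads. Of the 23029 exact matches 3 lay in those loci, where exact matches can stand under piRNAcluster instead, so this count follows the class labels and is no trait of the kind. With the last base removed, 43.3% of the last-base sequences (67.6% to 70.5% of reads) were themselves in the table under the piRNAcluster class, 8.20% (11.5% to 14.1% of reads) stood under nrRNA, and 40.9% (12.2% to 14.3% of reads) were not in the table. The class was not the main home of such reads. Of all reads that are a piRNAcluster sequence plus 1 U and stand outside piRNAcluster, 2.15% to 2.81% were tegRNA, 67.3% to 70.8% were under others and 26.4% to 30.5% under genes.

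last1, antisense to an intron of Gm62409, was the leading sequence of this kind and stood out in knockdown 2. It had 311 and 342 reads in wild type, 72 in knockdown 1 and 1168 in knockdown 2, or 27.97, 36.9, 7.48 and 107 RPM. The highest and the lowest value were both in knockdown. The same sequence without its last base, a piRNAcluster sequence, had 246, 332, 87 and 806 reads in the same order of libraries, so the form with the differing base outnumbered it in wild type 1, wild type 2 and knockdown 2.

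last2, an intergenic sequence of 17-qA3.3-26735, was nearly absent from knockdown 1. It had 239 and 325 reads in wild type, 2 in knockdown 1 and 324 in knockdown 2, and its shortened form had 250, 402, 0 and 318. last7, from an intron of Gm10505 in the same locus, ran the other way, with 99 and 84 reads in wild type, 185 in knockdown 1 and 115 in knockdown 2. Its shortened form had 257, 283, 736 and 327 reads, again highest in knockdown 1. last7 has 26 bases, last2 has 30 and last1 has 32, and knockdown 1 is the library with fewer long reads in the rest of the table too. The part of read length in these levels was not tested.

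The 5 leading loci held 53.4% of the last-base reads. The pair of neighbouring loci on chromosome 17 led, 17-qA3.3-26735 with 2635 and 2060 reads in wild type and 1955 and 3014 in knockdown, and 17-qA3.3-27363 with 1625 and 1378 in wild type and 1406 and 1098 in knockdown. Set against the piRNAcluster reads of the same locus, 17-qA3.3-26735 had 3.79 and 3.61 last-base reads per 1000 in wild type and 2.31 and 4.41 in knockdown. At 17-qA3.3-27363 the ratio was 4.53 and 4.26 per 1000 in wild type and 3.03 and 2.89 in knockdown, and at 15-qD3-14639 it was 7.51 and 6.87 in wild type and 3.04 and 15.1 in knockdown. The loci did not share 1 order. In 4 of the 5 leading loci knockdown 1 was lowest and knockdown 2 highest, while at 17-qA3.3-27363 knockdown 2 was lowest. Over all loci, tegRNA reads that are a piRNAcluster sequence plus U came to 2.28 and 2.10 per 1000 piRNAcluster reads in wild type and 1.54 and 2.33 in knockdown (means 2.19 ± 0.134 and 1.93 ± 0.557, SD, n = 2 each, exact permutation p = 1). Some loci had nearly no piRNAcluster reads in knockdown 1 either: 7-qD1-19431, named after its values were seen, had 25983 and 42845 of them in wild type and 6 and 50743 in knockdown, beside 183 and 349 last-base reads in wild type and 0 and 330 in knockdown.

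The exact matches were spread thinly over the genome. Of their sequences, 36.4% lay in exons on the gene's strand, 33.7% in introns on the gene's strand, 16.9% between genes, 11.1% antisense to introns and 1.91% antisense to exons. Of all exact matches, 56.3% lay on the strand of a gene coding for protein and 13.8% on that of a lncRNA gene. They fell on 6887 genes or opposite strands, and the 10 leading ones held 8.41% of the reads. The region antisense to Gm56948 (chr10:75702836-75728738 from the first to the last sequence) led with 260 sequences and had 14.3 and 21.7 RPM in wild type and 21.2 and 35.0 RPM in knockdown. The region antisense to Gm12984 had 172 sequences, with 9.17 and 19.5 RPM in wild type and 21.8 and 23.7 RPM in knockdown, where each knockdown value was above either wild-type value. Gm64122, a lncRNA gene on chromosome 8, was the third, with 2.43 and 4.32 RPM in wild type and 7.90 and 20.2 RPM in knockdown, again without overlap. These sums hold exact matches alone, and at position 92924010 of chromosome 8, inside Gm64122, reads with the reference base came from knockdown 2 only (83 reads), while the other libraries held another base there that the sum does not count. The value of Gm64122 thus depends in part on base differences between the libraries. The next in read total were the lncRNA gene Gm56730, with 5.31 and 6.26 RPM in wild type and 4.78 and 11.3 RPM in knockdown, and Spg21, with 9.35 and 3.46 RPM in wild type and 2.81 and 10.6 RPM in knockdown. The groups overlapped in both. The lncRNA gene Gm49774 had 4.23 and 4.75 RPM in wild type and 6.96 and 6.88 RPM in knockdown. The region antisense to Fam174b, next in order, had 42 and 106 reads in wild type, 0 in knockdown 1 and 44 in knockdown 2. These gene sums were not tested, and the regions are the 7 with the highest read totals. The share of all regions without overlap between the groups was not counted.

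Single exact matches were rare. exact1, from an intron of Spg21, was the most abundant, with 46 and 10 reads in wild type and 13 and 54 in knockdown. exact3, antisense to Gm12984, had 2 and 22 reads in wild type and 19 and 34 in knockdown. A count of 0 allows up to 3 reads, which is 0.270 to 0.324 RPM in these libraries, so a sequence missing from a library is often within counting error.

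Some mismatches recurred at the same genome position in several sequences. This search was made after the mismatch positions had been seen. Of 3185 tegRNA sequences whose mismatch lay at least 3 bases before the last base, 396 fell on 80 positions with 3 or more sequences each. Of the 80, 8 had no tegRNA read in either knockdown library, 13 had none in either wild-type library, 12 had none in either library numbered 1, 9 had none in either numbered 2, and 6 had reads in every library. The leading sequences at 3 of the 6 positions with most tegRNA reads are shown, with the mismatched base in capitals.

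site1, Gm49794 in locus 17-qA3.3-26735, chr17:27583414-27583443, plus strand: tgAgcaatctcgaaccttctagaaggactg
site2, Gm40402 in locus 6-qF3-28913, chr6:127789594-127789624, plus strand: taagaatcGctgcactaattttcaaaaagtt
site6, Gm64122, chr8:92924001-92924029, plus strand: tgtgatttgTatgtggtgtctgtactggc

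Counted from the 5′ end with the base of GRCm39 first, these are G3A, A9G and C10T. At site1, 32 tegRNA sequences held 210 reads in wild type 1 and 169 in knockdown 1, and 0 in wild type 2 and knockdown 2. Reads of any class with the reference base there numbered 87 and 249 in wild type and 113 and 322 in knockdown. So the libraries numbered 1 held both bases and the libraries numbered 2 held the reference base alone, whatever the group.

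At site2, 16 tegRNA sequences held 174 and 192 reads in wild type, 5 in knockdown 1 and 0 in knockdown 2. Reads with the reference base numbered 0 in wild type 1, wild type 2 and knockdown 1, and 59 in knockdown 2. At site6 reads of any class with the changed base numbered 15, 31, 36 and 0 over wild type 1, wild type 2, knockdown 1 and knockdown 2, and reads with the reference base numbered 0, 0, 0 and 83. Knockdown 2 held the reference base alone at these 3 sites, which were picked from the 6 leading positions. In the reads counted, such a full exchange was rare. The counts of any class took reads that hold 20 set bases around the position. They missed some others, such as reads with the position at or next to an end. Of 62, 62, 57 and 64 positions with 10 or more reads of any class in wild type 1, wild type 2, knockdown 1 and knockdown 2, 5, 6, 2 and 0 held the changed base alone, 25, 20, 20 and 28 held both bases, and 32, 36, 35 and 36 held the reference base alone. Of 63 positions with 10 or more reads in at least 2 libraries, 5 held the changed base alone in some libraries and the reference base alone in others. At another leading position, in Gm36617 of locus 15-qD1-4001, tegRNA reads with the changed base came from all 4 libraries (12 and 10 in wild type, 20 and 26 in knockdown). The count of any class found 0 and 3 of them in wild type and 0 and 3 in knockdown. Positions counted with the reference base alone can thus hold tegRNA reads with the changed base. Reads with the changed base were 100% tegRNA at site1 and 99.5% at site2, while 86.4% of those with the reference base at site1 were piRNAcluster and 91.5% of those at site2 were nrRNA.

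Of the 41941 tegRNA sequences, 231 reached 1 count per 1000000 (CPM) in at least 2 libraries and were tested with all 103209 such sequences of the table. edgeR's quasi-likelihood test called 0 of them at an adjusted p of 0.05, as it did over the whole table (0%), and DESeq2 also called 0. At an unadjusted p of 0.05 edgeR and DESeq2 each had 3 tegRNA sequences, all lower in knockdown, against 0.667% of all tested sequences lower and 0.0426% higher in edgeR. Each knockdown level was above either wild-type level for 19 tested tegRNA sequences (8.23%, background 11.1%) and below for 44 of the 231 (background 14.7%). The counts cover only sequences that passed the filter.

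The sequence of lowest p was the one shown for site2, with 71 and 85 reads in wild type and 1 and 0 in knockdown. Its log2 fold change was -7.09 (SE 1.42, edgeR unadjusted p = 0.00226, edgeR adjusted p = 1), with a range over 7 alternatives of -9.33 to -6.14. The second was the same sequence less its last base, with 53 and 50 reads against 2 and 0. At the mismatched position of both, reads with the reference base came from knockdown 2 only (59 reads). Their locus, 6-qF3-28913, had 43484 and 64976 piRNAcluster reads in wild type and 5531 and 80910 in knockdown. The part of either in these fold changes was not tested. The third, ttccaacgctgggcactttctgagagggTt, lay at chr5:149748128-149748157 on the minus strand in an exon of Gm21221, with the mismatch G29T. It had 13 and 29 reads in wild type and 0 and 1 in knockdown (log2 fold change -5.16, SE 1.58, edgeR adjusted p = 1). These 3 reached 1 CPM in the wild-type libraries alone, so they passed the filter only through the group where they were high. Without knockdown 1 the log2 fold changes of these 3 were -9.33, -8.74 and -4.33. Without knockdown 2 they were -6.14, -4.62 and -7.42.

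In the other direction the lowest p belonged to ttgtatagctcgggactagagagatgT, a last-base sequence of 15-qD1-17920 at chr15:59139887-59139913 on the minus strand. It had 2 and 1 reads in wild type and 14 and 12 in knockdown (log2 fold change 2.87, SE 1.76, edgeR adjusted p = 1). exact4, from an intron of Gm64122, followed with 8 and 9 reads against 40 and 16. The next was ttgactgcagcactatactctggagtaT, a last-base sequence of 14-qA3-19970 at chr14:24152848-24152875 on the plus strand, with 7 and 13 reads against 14 and 50. The first of these and exact4 reached 1 CPM in the knockdown libraries alone, so they passed the filter only through the group where they were high. They had no value in the fits without a knockdown library. Neither these nor the lower sequences above passed an adjusted p of 0.05 in the alternatives that kept all 4 libraries.

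Reads of 25 to 31 nt, the length of piRNAs, made up 86.4% and 88.1% of tegRNA reads in wild type and 88.8% and 85.5% in knockdown, and 27 nt was the most frequent length in each library. All lengths from 20 to 47 nt were included. In the rest of each library the share of 25 to 31 nt was 45.1% to 64.3%. The class was higher in 4 of 4 libraries, by 32.7 percentage points on average (SD 9.37, n = 4), with p = 0.13 in an exact two-sided sign-flip permutation test, the smallest that 4 libraries allow.

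The kinds differed in length. The family peaked at 27 nt with 32.8% to 41.2% of its reads, and the exact matches at 27 nt with 20.2% to 26.3%. The last-base sequences peaked at 30 nt in both wild-type libraries, at 31 nt in knockdown 2 and at 27 nt in knockdown 1. Of their 25 to 31 nt reads, 56.4% and 59.1% were 29 to 31 nt long in wild type, 31.9% in knockdown 1 and 63.6% in knockdown 2. Knockdown 1 was thus short and knockdown 2 long among reads of 1 group.

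**Figure D4:**
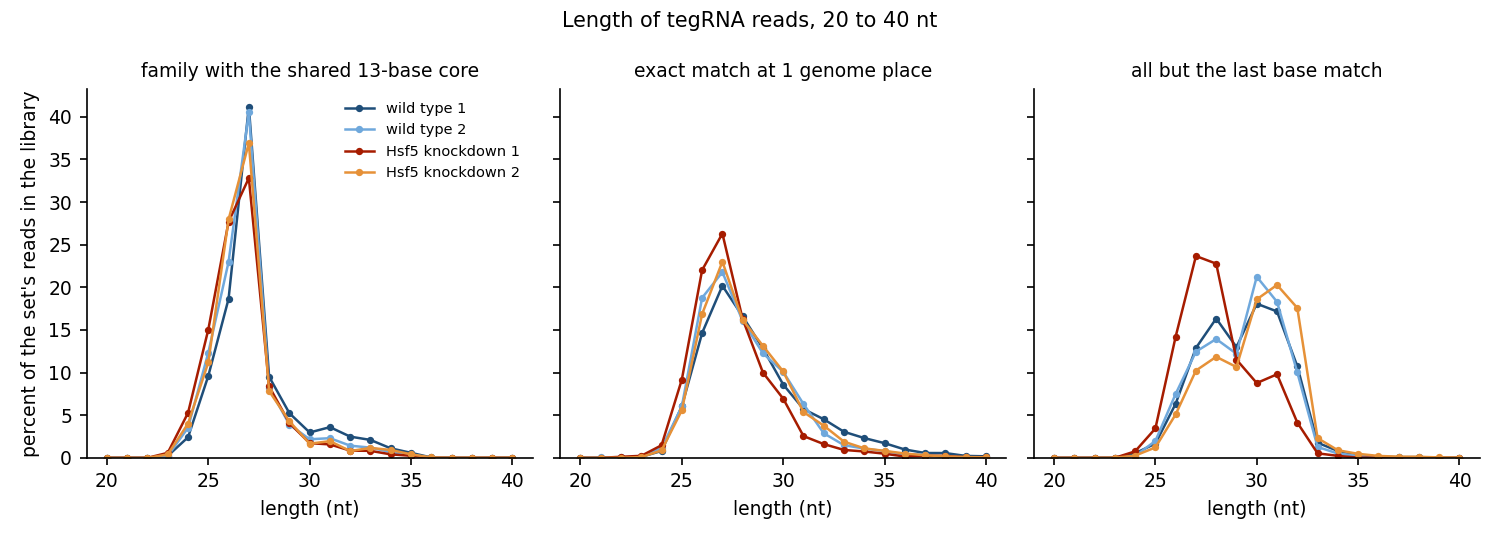
Lines give the share of reads at each length from 20 to 40 nt, per library, for the family with the shared core, the exact matches and the last-base sequences. The family and the exact matches peak at 27 nt in every library, while the last-base sequences peak at 30 or 31 nt in all but knockdown 1.

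The first base and base 10 depended on whether reads or sequences were counted. Among 25 to 31 nt tegRNA reads, U came first in 39.4% and 50.4% in wild type and in 58.5% and 58.2% in knockdown, so the 2 knockdown values were higher than either wild-type value (exact permutation p = 0.33, the smallest possible, n = 2 per group). The remainder was mostly C, which came first in 66.8% to 81.6% of the family's reads. Without the family, U came first in 79.5% and 84.3% in wild type and in 84.0% and 87.5% in knockdown (exact permutation p = 0.667, n = 2 per group), and the groups overlapped. Counted once per sequence it was 75.6% and 80.0% against 79.8% and 83.9%. Last-base reads began with U in 91.3% to 92.1% and exact matches in 73.5% to 84.95%.

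A stood at base 10 in 9.80% and 13.3% of 25 to 31 nt tegRNA reads in wild type and in 15.1% and 13.5% in knockdown (exact permutation p = 0.33, n = 2 per group). Without the family it was 28.4% and 27.96% in wild type and 26.3% and 29.2% in knockdown, and the direction of the difference changed.

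Against all other reads of the same library, U at the first base was lower among tegRNA reads in 4 of 4 libraries, by 30.4 percentage points on average (SD 6.28), and A at base 10 was lower by 12.9 (SD 2.75). Without the family both were higher in 4 of 4 libraries, by 1.83 (SD 0.973) and 2.16 (SD 0.903) percentage points. Per distinct sequence they were higher by 5.19 (SD 1.41) and 2.59 (SD 0.590). Each of these had p = 0.13 in the exact sign-flip permutation test with n = 4.

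**Figure D5:**
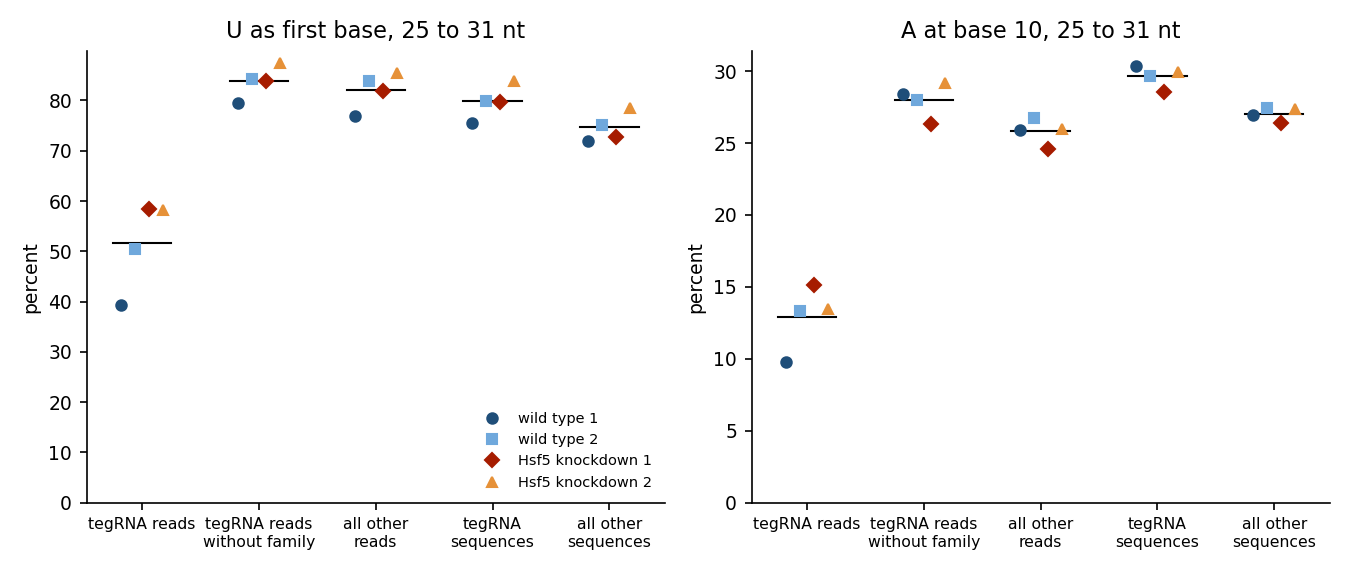
Points give, per library, the percent with U as first base (left) and with A at base 10 (right) among 25 to 31 nt tegRNA reads, tegRNA reads without the family, all other reads, tegRNA sequences and all other sequences, and lines give the mean of the 4 libraries. The tegRNA reads lie far below the other reads in both panels until the family is left out.

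Few tegRNA sequences were shared between libraries, and those few held most reads. Of the 41941, 87.4% were found in 1 library and held 22.96% of the reads, while 682 (1.63%) were found in all 4 and held 65.8%. Wild type 1 shared 14.4% of its sequences with wild type 2 and 16.3% with knockdown 2, and knockdown 1 shared 18.9% of its sequences with knockdown 2, which is 9.88% of those of knockdown 2. Of the family, 50 sequences in all 4 libraries held 99.3% of its reads. Of the exact matches 91.2% were in 1 library, and those in all 4 held 7.43% of the reads.

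The most abundant sequences were nearly the same in each library. 8 sequences were among the 10 most abundant of all 4 libraries, 13 were among the 10 of any library, and all 13 were found in each of the 4. Of the 13, 11 were of the family and the others were last1, in the list of knockdown 2, and last7, in that of knockdown 1. The 10 leading sequences of each library together held 38.8% of tegRNA reads in knockdown 1 and 56.7% in wild type 1. Over the 100 most abundant of each library, 43 were common to all 4 lists.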

How the data were processed

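Small RNA of 4 testis libraries was measured. The deposited table gives, per the labels and from its values, 1 line per sequence, library and annotation, with a whole-number read count as deposited by the authors, a length, a class and a ratio, the authors' scaling factor, which equals 1000000 over the mature miRNA reads of the library. Per the submitters' processing notes, adapters were trimmed with cutadapt and the build was mm39, and the stated insert range is 18 to 40 nt. The aligner, its mismatch limit and the order in which classes were assigned are not stated in those sources, and they decide which reads a class holds.

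Each sequence was counted once per library: 3802 repeated tegRNA lines were dropped. Levels are reads per 1000000 counted reads (RPM). Sequences were placed on GRCm39, the same build, and annotated at their middle base with GENCODE M39. Places with 1 mismatch were searched from 12-base seeds, so the search is complete from 24 nt upward, and 302 sequences with an undetermined base count it as a mismatch. Promoter tables were not used, and the hairpin of Mir5099 is from RefSeq (GRCm38.p6). Shares were compared by exact permutation tests. Counts per sequence and per class were fitted with edgeR 4.0.16 (quasi-likelihood, robust, TMM, at least 1 CPM in at least 2 libraries, Benjamini-Hochberg over the whole table), with DESeq2 1.42.0 as an alternative, in R 4.3.3, and checked on simulated data. Named sequences are the 10 of highest mean RPM, the leading one of each library and the 3 of lowest p in each direction. The last-base, exact and unplaced sequences were named afterwards by mean RPM. The sites were numbered by reads, and 3 of the 6 leading ones are shown. The members, lists and tests were chosen with earlier results of these data known. All 4 libraries were kept. Counts of the wild-type pair and of the knockdown pair differed beyond sampling noise over tegRNA sequences (chi-square per degree of freedom 11.9 and 28.5). The p-values set a difference against the spread between these libraries and do not measure that spread.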

Additional observations from a re-analysis of the deposited data

How the results depend on the processing

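Leaving out the family with the shared core, an alternative chosen after the data were seen, turned several directions: first base U, base 10 A and the share of 29 to 31 nt, each as tegRNA minus all other reads, went from -30.4, -12.9 and -6.03 percentage points to 1.83, 2.16 and 11.3, and to 5.19, 2.59 and 5.61 when each sequence was counted once. Between the groups, knockdown minus wild type, it turned base 10 A from 2.73 to -0.45 points and the share of 25 to 31 nt from -0.079 to 1.67, the latter also turning to 1.09 without core1 alone. Leaving out 1 library at a time, the tegRNA share of reads ranged from -0.307 to 0.0229 points (higher in knockdown only without knockdown 1), the share of 25 to 31 nt from -1.74 to 1.58 (values above 0 without wild type 2, 0.745, and without knockdown 2), and that of 29 to 31 nt from -6.39 to 1.49 (above 0 without knockdown 1). The count of tegRNA sequences called by edgeR ranged from 0 to 33: 20 without knockdown 1 and 33 without knockdown 2, where the lone knockdown library is assumed to vary like the wild-type pair, and 0 under each other alternative. Log2 fold changes turned for core4 without wild type 1 (0.29) and without knockdown 1 (0.23; range over the libraries left out -1.66 to 0.29), for core5 without knockdown 2 (-0.65; range -0.65 to 1.16), and for core8 with DESeq2 (0.023), RLE factors (0.023), without wild type 1 (0.10) and without knockdown 1 (0.30; range -0.81 to 0.30). Scaling moved the median log2 fold change of all tested sequences from -0.18 (TMM) to -0.0084 (RLE) and -0.27 (mature miRNA reads), and that of the class from -0.42 to -0.36 and -0.49. In the fits with 1 knockdown library, edgeR also called sequences over the whole table. The tegRNA counts there do not set the class apart. With the replicate number as a block, which pairs 2 libraries with 2, edgeR called 0 tegRNA sequences and the class had -0.49. Deviations of same-numbered libraries correlated at 0.33 over tested sequences, and the labels do not say what a number marks. Of the other values under the alternatives run, 92 of comparisons and 116 of single sequences kept their direction or, for counts of called sequences, stayed at 0. The edgeR and DESeq2 values among them also kept their side of the threshold. The shares had no side to keep. Their exact tests cannot reach the threshold with so few libraries, and no p-value was given with 1 library left out. The remaining single-sequence values crossed the threshold only in fits with 1 knockdown library. Depth limits single sequences: 36662 of 41941 were seen in 1 library.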
